A study of Papio anubis with 25 samples.

Results

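The 10 genes described here, of 21287 in the abundance table, are S100A8, S100A9, CRNN, SPRR3, MAL, TGM3, A2ML1, CNFN, EMP1 and SCEL. They were taken by symbol as genes of stratified squamous mucosa that are not keratins, and they were chosen by their levels in the sublingual libraries, some of which had been seen to be very high. Their sublingual levels are therefore given as a description with no test. Each symbol had 1 row, and all 10 rows were used.

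The study compared RNA of salivary and digestive organs within the same olive baboons (Papio anubis). Parotid gland, submandibular gland, sublingual gland, pancreas and liver were taken from 5 animals, 4 females and 1 male, which gave 25 libraries with 1 library per tissue and animal. Baboons are named by the number in their sample titles. All tissue was flash frozen, the labels name no treatment, and RNA came from a few thin sections of each piece, so a library samples a small volume of tissue. Ages were not in the labels used here. Values are TPM, a level per transcript length relative to everything else in the same library, scaled so that all genes of a library add up to the same total. A TPM table keeps no read numbers, so the depth of each library is unknown and the spread over animals is the only error available.

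Stratified squamous epithelium covers the mouth and oesophagus, whereas salivary glands are built of secretory acini and ducts. As its cells move from the basal layer to the surface they replace basal keratins by KRT13 and KRT4, store small proteins such as the SPRR family and cornulin, and cross-link these beneath the membrane with transglutaminases. The same surface cells hold large amounts of S100A8 and S100A9, the 2 subunits of calprotectin, which neutrophils and monocytes also make. In bulk RNA, fewer cells of a type and less RNA per cell cannot be told apart.

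The sublingual label was checked against salivary markers first, because all sublingual values below rest on these 5 libraries. The summed level of 15 salivary acinar genes was 11866 TPM in the sublingual library of baboon 1, 1484 in baboon 2, 34485 in baboon 3, 5899 in baboon 4 and 342544 in baboon 5. The library of baboon 2 lay inside the liver range (1003 to 4644 TPM), and its 10 skeletal muscle genes summed to 119213 TPM against 59.8 to 774 TPM in the other 4 sublingual libraries. The libraries of baboons 1 and 4 lay above every pancreas and liver library. They fell within the submandibular range (2355 to 71291 TPM) only because the submandibular library of baboon 2 formed its low end. Each other submandibular library held at least 44375 TPM, above both. In parotid gland the sums were 21715, 2352, 8246, 17624 and 5005 TPM in baboons 1 to 5, a range that holds both. AQP5, the acinar water channel, was at 40.5, 2.61, 68.9, 3.78 and 225.7 TPM in baboons 1 to 5. The 5 sublingual libraries therefore differed widely in salivary marker content.

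All 10 genes had the same pair of libraries at the top of the 25, the sublingual libraries of baboons 1 and 4. Summed over the 10 genes, the level was 99498 TPM in baboon 1 and 107755 TPM in baboon 4, or 9.95% and 10.8% of everything measured in those libraries. The sublingual sums of baboons 2, 3 and 5 were 471, 1037 and 392 TPM. In the other 4 tissues the sums ran from 9.44 TPM (liver, baboon 1) to 1610 TPM (submandibular, baboon 2). Of the sum over all 25 libraries, 45.8% lay in the sublingual library of baboon 1 and 49.6% in that of baboon 4. Of 20524 genes, 4.28% had these libraries as their highest pair, a share that cannot be read as a test of the 10 genes because the choice of genes used it.

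**Figure D1:**
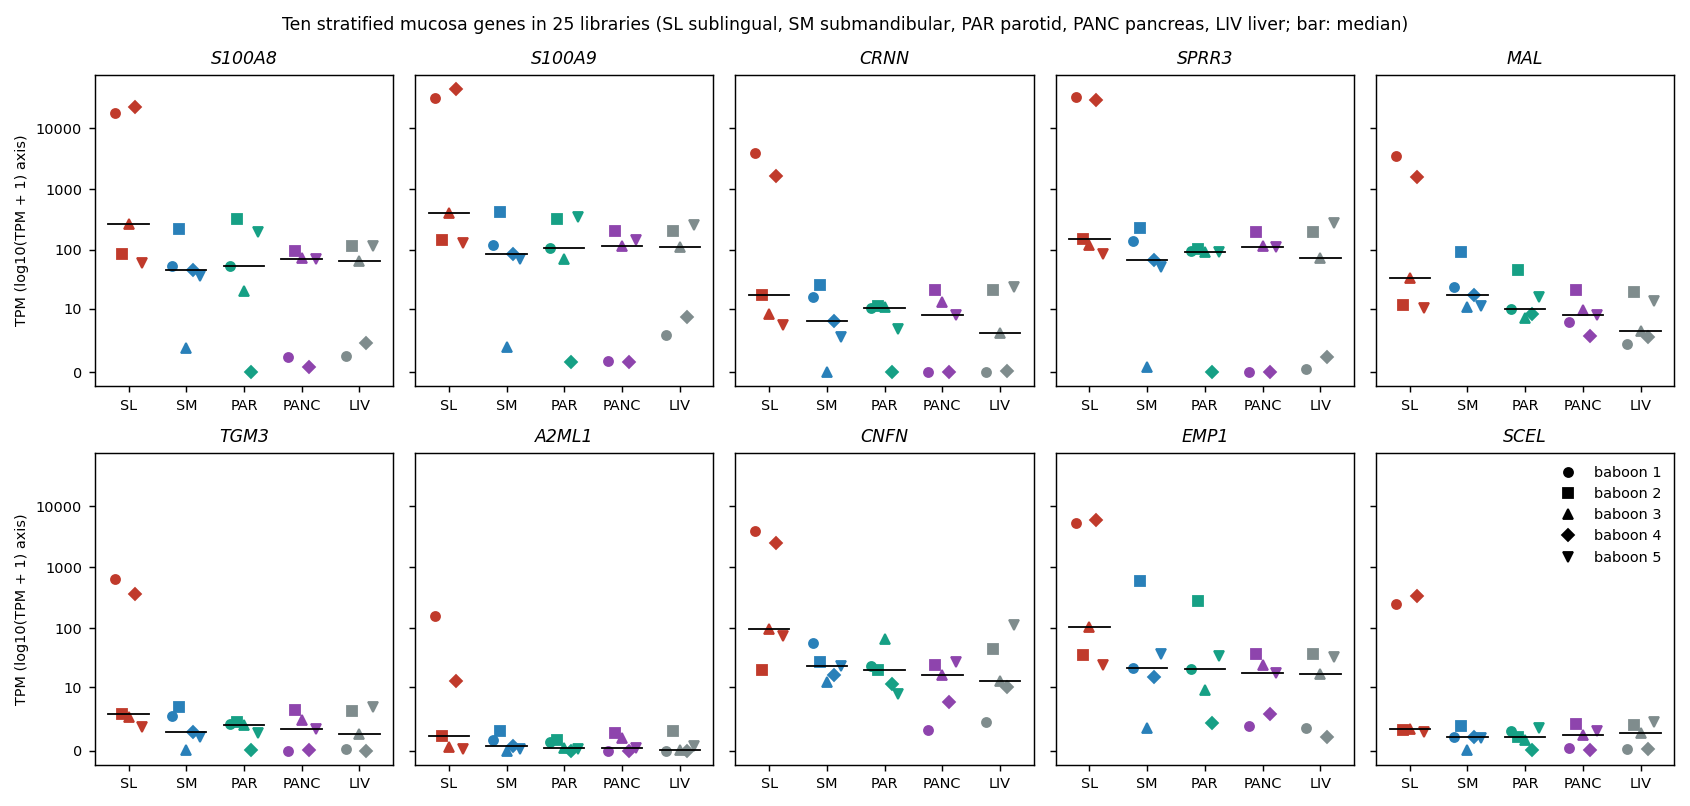
TPM of each of the 10 genes (log10(TPM + 1) axis) in the 25 libraries, by tissue; each point is 1 library, its marker gives the animal, and the bar is the median of 5. In every panel the sublingual points of baboons 1 and 4 stand above all other points, and the points of the other 4 tissues overlap.

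Among the calcium-binding S100 genes, S100A9 measured 31555.5 TPM in the sublingual library of baboon 1, 146 in baboon 2, 404 in baboon 3, 44192 in baboon 4 and 130 in baboon 5. By level it was the gene at rank 3 in baboon 1 and rank 2 in baboon 4. S100A8, its partner in the calprotectin dimer, was at 17572.5, 86.2, 264, 21923 and 59.8 TPM in the same order. The lower of the high pair exceeded the next highest library 75.8-fold for S100A9 (submandibular, baboon 2, 416 TPM) and 53.4-fold for S100A8 (parotid, baboon 2, 329 TPM).

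Because neutrophils carry both S100 genes, their other markers were examined in the same libraries. Of 21 neutrophil and myeloid symbols 18 were in the table, and 0 had the sublingual libraries of baboons 1 and 4 as the highest pair, which is close to the 4.28% found over all genes. Their summed level was 1401, 32.3, 699, 572 and 17385 TPM in sublingual baboons 1 to 5, and 27.3 to 1373 TPM over the other 20 libraries. Lysozyme (LYZ), which acinar cells also make, supplied most of the sublingual sums. Without LYZ the remaining 17 genes summed to 60.5 TPM in baboon 1 and 23.4 TPM in baboon 4, of which 9 and 13 genes were under 1 TPM. CSF3R, the granulocyte growth factor receptor, was at 0.141 and 0.0196 TPM in these libraries, and MMP8, the neutrophil collagenase, was listed at 0 in both. CXCR2, a chemokine receptor of neutrophils, was at 12.5 TPM in baboon 1 and 1.28 TPM in baboon 4. S100A12, another calgranulin and the 1 protein-coding gene between S100A9 and S100A8 in the RefSeq gene order of Panubis1.0, was at 2.83 and 3.77 TPM. In sublingual gland against pancreas, fitted with limma below, MPO and LYZ were called higher. These were 2 of 15 tested myeloid genes, beside 6.97% of all genes. Under TMM or median-of-ratios scaling, or without baboon 1, 3, 4 or 5, 0 myeloid genes were called higher. Without baboon 2 the count was 2, and the other settings gave 1 to 3. MPO and LYZ were also among 4 of 14 myeloid genes called in parotid against pancreas, beside 5.84% of all genes. MPO was the 1 of 14 called in submandibular gland against pancreas, beside 5.64%.

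Of the genes whose products build the cornified envelope or are cross-linked into it, SPRR3, a small proline-rich envelope protein of the oesophagus and mouth, was at 32569, 149, 121, 29203 and 85.8 TPM in sublingual baboons 1 to 5. It was the gene at rank 2 in baboon 1 and rank 7 in baboon 4, and the lower of these exceeded the next highest library (liver, baboon 5, 273 TPM) 107-fold. CRNN, which encodes cornulin, a fused-type S100 protein of upper epithelial layers, was at 3976, 17.3, 7.91, 1622 and 4.85 TPM. Both genes were high in the same pair of animals and did not fall to 0 in the other 3.

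CNFN, encoding cornifelin, was at 3883, 20.2, 96.3, 2554 and 74.6 TPM, and SCEL, encoding sciellin, a precursor of the envelope, at 251, 1.17, 1.26, 344 and 1.04 TPM. TGM3, the transglutaminase that cross-links envelope proteins, was at 634, 2.96, 2.56, 361 and 1.42 TPM. These 3 genes repeated the order of SPRR3 in so far as baboons 1 and 4 led, and the lower of that pair exceeded the next highest library 22.7-fold for CNFN, 128-fold for SCEL and 84.5-fold for TGM3.

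A2ML1, a broad protease inhibitor of the epithelium related to alpha-2-macroglobulin, was the lowest of the 10 genes, at 157, 0.706, 0.148, 12.9 and 0.0583 TPM. It was also the gene with the largest gap between the 2 high libraries, 12.2-fold higher in baboon 1 than in baboon 4 as deposited and 7.44-fold after TMM scaling. IVL, encoding involucrin, an early envelope precursor, was the gene most like A2ML1 over the 25 libraries (Pearson r = 0.998) and stood at 152 and 9.06 TPM.

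The remaining genes encode membrane proteins. MAL, a raft protein of apical transport, was at 3476, 11.8, 34.4, 1556 and 10.4 TPM, and EMP1, epithelial membrane protein 1, at 5423, 35.4, 105, 5987 and 24.5 TPM. The lower of the high pair exceeded the next highest library, that of submandibular gland of baboon 2, 17.1-fold for MAL and 9.10-fold for EMP1. The gap for EMP1 was the narrowest of the 10 genes, followed by A2ML1 with 11.6-fold and MAL.

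The pair of high libraries were not copies of each other. CRNN was 2.45-fold, MAL 2.23-fold, TGM3 1.76-fold, CNFN 1.52-fold and SPRR3 1.12-fold higher in baboon 1. In baboon 4, S100A9 was 1.40-fold, SCEL 1.37-fold, S100A8 1.25-fold and EMP1 1.10-fold higher. With 1 library per animal these ratios have no replicate check, and they depend on the scaling between libraries. After TMM scaling CRNN was 1.49-fold, MAL 1.36-fold and TGM3 1.07-fold higher in baboon 1, whereas CNFN and SPRR3 turned to 1.08-fold and 1.47-fold higher in baboon 4. S100A9 was then 2.30-fold, SCEL 2.24-fold, S100A8 2.05-fold and EMP1 1.81-fold higher in baboon 4, and median-of-ratios scaling gave the same directions. KRT13 and KRT4, 2 of the 9 listed mucosal keratins, leaned the same way as CRNN. KRT13 was at 50365 and 12518 TPM and KRT4 at 24203 and 5334 TPM in baboons 1 and 4. The other keratins of the list were not compared in this way.

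The other genes of squamous differentiation were read from 7 lists: cornified envelope, the S100 and related genes of the epidermal differentiation complex, desmosome, squamous proteases and inhibitors, epithelial transcription factors, other oesophageal mucosa genes, and mucosal keratins. In all, 61 of their 95 genes had the sublingual libraries of baboons 1 and 4 as the highest pair, against 4.28% of all genes. The count was 12 of 12 for proteases and inhibitors, 12 of 16 for other oesophageal genes, 9 of 12 for desmosome genes, 10 of 16 for envelope genes, 6 of 9 for keratins, 7 of 14 for transcription factors and 5 of 16 for the epidermal differentiation complex. The lists were assembled with results of these libraries known, so the counts are a description.

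Examples from the surface programme reached the levels of the 10 genes themselves. CRCT1, a cysteine-rich protein encoded in the epidermal differentiation complex, was at 15036, 53.6, 154, 22297 and 40.5 TPM in sublingual baboons 1 to 5. CSTB, a cathepsin inhibitor, was at 17846, 140, 269, 5769 and 192 TPM, and CSTA, a related inhibitor found in the envelope, at 5765, 28.9, 78.8, 6126 and 28.5 TPM. SPINK7, an oesophageal protease inhibitor, was at 3124, 13.1, 28.2, 6857 and 15.7 TPM. All 4 were high in baboons 1 and 4, with baboon 4 above baboon 1 for CRCT1, CSTA and SPINK7 and below it for CSTB.

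Genes of cell junctions and of gene regulation were lower and less alike. PERP, a desmosomal membrane protein, was at 1031, 9.42, 34.2, 134 and 89.5 TPM, so baboon 4 stood 1 place above baboon 5. JUP, encoding plakoglobin, was at 380, 21.4, 8.97, 40.0 and 21.9 TPM. PITX1, a transcription factor of the oral region, was at 710, 28.4, 49.9, 271 and 75.3 TPM, and PAX9, another such factor, at 147, 1.08, 3.45, 191 and 22.2 TPM. CRISP3, a secreted protein of salivary glands and other epithelia, followed another order, with its highest sublingual value in baboon 5 (3089 TPM against 1572 and 2103 TPM in baboons 1 and 4). Of the lists for other cell types, neutrophil and myeloid, lymphoid, salivary acinar, skeletal muscle, adipocyte, endothelium and fibroblast, pancreatic acinar and hepatocyte genes had 0 with the same highest pair, and the salivary duct list had 1 of 7, the sodium channel subunit SCNN1B.

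**Figure D2:**
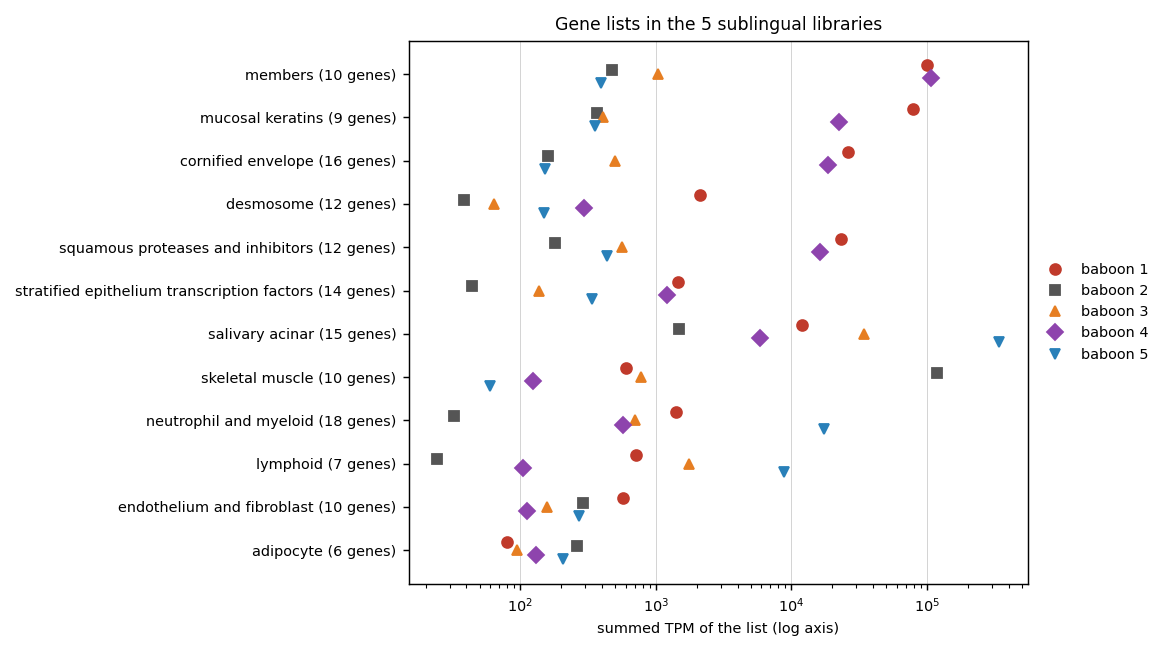
Summed TPM (log axis) of 12 gene lists in the 5 sublingual libraries; each point is 1 library, with the animal given by marker and colour. Baboons 1 and 4 lead in the first 6 lists, baboon 5 leads in the salivary acinar list at 342544 TPM, and baboon 2 in the skeletal muscle list at 119213 TPM.

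For the size of the difference between tissues, sublingual gland was set against pancreas of the same animal as a difference in log2(TPM + 1), a scale that understates changes of low genes. For SPRR3 the differences were 14.99 in baboon 1, -0.38 in baboon 2, 0.07 in baboon 3, 14.83 in baboon 4 and -0.40 in baboon 5. For S100A9 they were 14.33, -0.50, 1.79, 14.86 and -0.15. Means over animals were 5.82 ± 8.30 (SD, n = 5) for SPRR3, 6.07 ± 7.84 for S100A9, 4.80 ± 5.54 for EMP1 and 2.08 ± 3.41 for A2ML1, and the SD exceeded the mean for each of the 10 genes. The pancreas of baboons 1 and 4 held SPRR3 at a listed 0, so no fold is given. Against the mean of the other 2 salivary glands of the same animal, the difference in EMP1 ran from -3.51 in baboon 2 to 9.79 in baboon 4, and that in S100A8 was 5.17 in baboon 3.

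**Figure D3:**
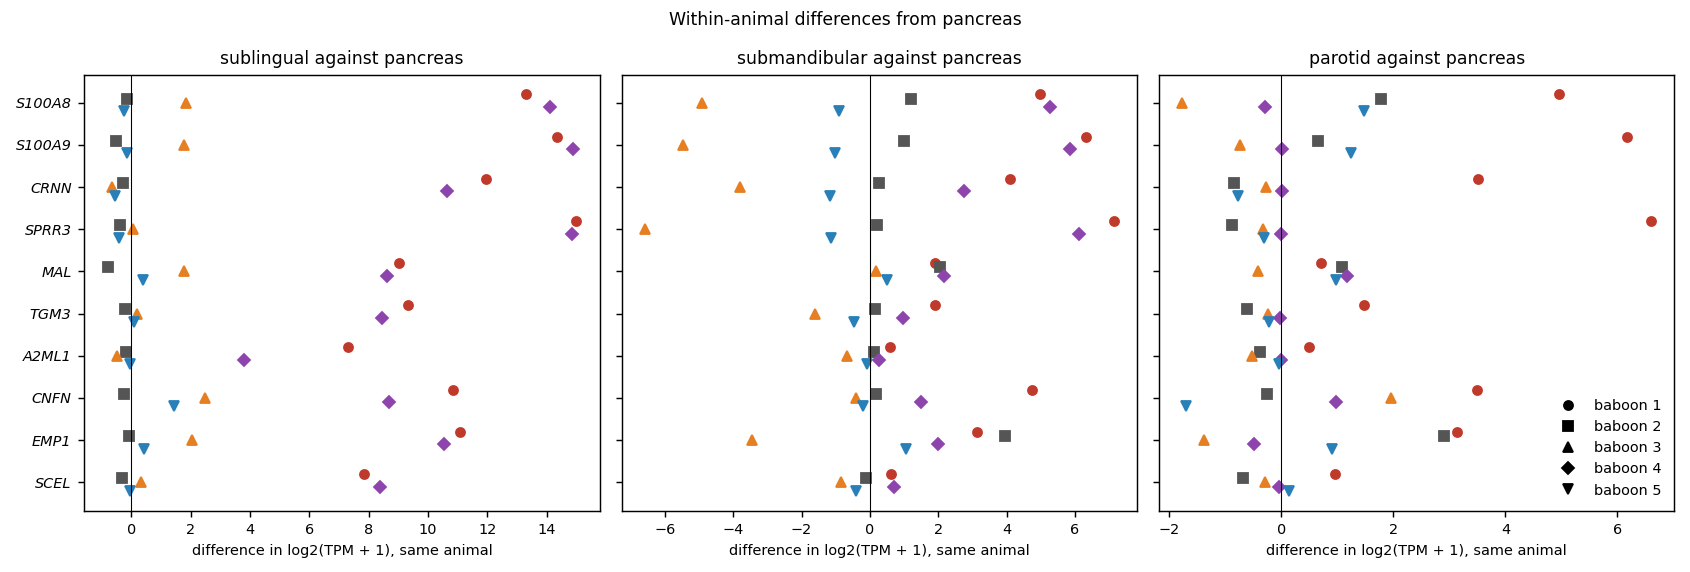
Differences in log2(TPM + 1) from pancreas of the same animal for the 10 genes, for sublingual (left), submandibular (middle) and parotid gland (right); each point is 1 animal and the vertical line is no difference. In the left panel baboons 1 and 4 lie far to the right, SPRR3 at 14.99 and 14.83, while the other animals stay near 0 or move by a few units.

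Over all genes, the sublingual against pancreas comparison was fitted with limma, a linear model across all genes with animal as a term, and calls needed p below 0.05 after Benjamini-Hochberg adjustment over all tested genes and a log2 difference of 1 or more. Of 14991 genes tested 9.47% were called, 6.97% higher and 2.49% lower. Higher calls were 73.6% of all calls with TPM as deposited and 38.8% or 40.0% after TMM or median-of-ratios scaling, and the median difference of all genes was 0.63 on the log2 scale before scaling. The median over the 10 genes was 4.43. Against the mean of parotid and submandibular gland 0.620% of genes were called. Over all genes that comparison had 0 calls without baboon 1 and 0 without baboon 4, 10 without baboon 3, 194 without baboon 5 and 2523 without baboon 2. No count of calls is given for the 10 genes or the squamous lists in these comparisons, because the genes were chosen on the same libraries.

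The 10 genes were also present at low levels outside the sublingual libraries of baboons 1 and 4. SPRR3 measured 140, 226, 0.218, 68.3 and 51.1 TPM in submandibular baboons 1 to 5, and 96.0, 105, 91.5, a listed 0 and 91.4 TPM in parotid. In pancreas it was listed at 0 in baboons 1 and 4 and measured 195, 116 and 114 TPM in baboons 2, 3 and 5, and in liver it measured 0.151, 199, 72.7, 0.749 and 273 TPM in baboons 1 to 5. A gene of stratified mucosa was thus measured in liver and pancreas at levels that overlap those of parotid gland, and 6 of the 20 libraries held less than 1 TPM of it. Whether these low levels arose in the tissue itself or came with RNA or reads of another sample was not tested, and the tissue comparisons of the 10 genes rest on them.

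S100A9 had the same low libraries. It measured 122, 416, 1.64, 85.6 and 70.2 TPM in submandibular baboons 1 to 5 and 109, 328, 69.5, 0.492 and 343 TPM in parotid. In pancreas it measured 0.529, 207, 116, 0.481 and 144 TPM, and in liver 3.12, 208, 110, 6.98 and 260 TPM. In each tissue the libraries in which SPRR3 was below 1 TPM were also the lowest for S100A9.

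By tissue mean, S100A9 ranked sublingual (15286 ± 21099 TPM, SD, n = 5), parotid (170 ± 156), submandibular (139 ± 161), liver (118 ± 116) and pancreas (93.8 ± 91.3). The order for SPRR3 was sublingual (12426 ± 16894 TPM), liver (109 ± 122), submandibular (97.0 ± 87.6), pancreas (84.9 ± 84.2) and parotid (76.8 ± 43.3). In both orders each step between neighbours was smaller than the SD of the higher tissue. Over the 20 libraries that are not sublingual the median was 110 TPM for S100A9, 91.4 for SPRR3, 54.4 for S100A8, 19.4 for EMP1, 18.3 for CNFN, 10.3 for MAL and 6.76 for CRNN. It was 1.17 TPM for TGM3, 0.693 for SCEL and 0.0969 for A2ML1, which was listed at 0 in 6 libraries.

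The proportions between the genes were then compared across libraries, with each level expressed as a percentage of SPRR3. Besides the sublingual libraries of baboons 1 and 4, 17 libraries held at least 10 TPM of SPRR3, from 0.157% to 0.838% of its level in sublingual baboon 1. CRNN was 12.2% of SPRR3 in sublingual baboon 1 and 5.55% in sublingual baboon 4, and ran from 4.44% to 11.7% over the 17. In pancreas it was 10.9% in baboon 2, 11.3% in baboon 3 and 6.73% in baboon 5, and in liver 10.7%, 4.70% and 8.89% in the same animals.

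Over the 17 libraries the highest CRNN proportion was 2.63-fold the lowest, beside a 2.20-fold gap between the high libraries themselves. TGM3 ran from 1.05% to 2.11% of SPRR3 (1.95% and 1.24% in sublingual baboons 1 and 4) and SCEL from 0.497% to 1.44% (0.772% and 1.18%). A2ML1 ran more widely, from 0.0362% to 0.547%, and its values in the high libraries, 0.484% and 0.0442%, were 10.9-fold apart. KRT13 ran from 39.2% to 153% (154.6% and 42.9%) and KRT4 from 16.4% to 71.5% (74.3% and 18.3%). The values of these genes lay mostly near or between those of the high libraries. Some sat midway, such as KRT13 at 87.2% and A2ML1 at 0.302% in the submandibular library of baboon 4. The high libraries were 3.61-fold apart for KRT13 and 4.07-fold for KRT4, but 1.36-fold for CNFN and 1.23-fold for EMP1. Lying near or between them was thus easier to meet for A2ML1 and these keratins than for CNFN and EMP1.

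In some libraries the other genes reached proportions well above those of the high libraries. The median over the 17 lay between the high libraries for S100A8 (63.5%) and S100A9 (125%). It lay just above them for MAL (10.9%) and EMP1 (21.9%, against 16.7% and 20.5%), and further above for CNFN (23.7%). S100A8 ran from 22.8% to 313% of SPRR3 (54.0% and 75.1% in sublingual baboons 1 and 4), MAL from 4.98% to 43.8% (10.7% and 5.33%) and CNFN from 8.30% to 87.0% (11.9% and 8.75%). S100A9 reached 375% of SPRR3 in the parotid library of baboon 5, 333% in the sublingual library of baboon 3 and 312% in the parotid library of baboon 2, against 96.9% and 151% in the high libraries. The myeloid genes without LYZ summed to 510.0, 82.0 and 219 TPM in these 3 libraries, against 8.29 to 67.9 TPM in the other gland and pancreas libraries and 236 to 658 TPM in liver, where CD14 supplied most of the sum. The part of myeloid cells in these S100A9 levels was not tested.

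EMP1 showed the widest departures. It measured 21.2, 596, 1.36, 15.0 and 37.9 TPM in submandibular baboons 1 to 5, 21.0, 286, 8.79, 1.86 and 34.0 TPM in parotid, 1.51, 37.6, 24.6, 3.03 and 17.8 TPM in pancreas and 1.30, 37.9, 16.8, 0.675 and 33.0 TPM in liver. The submandibular and parotid libraries of baboon 2 stood out, at 264% and 272% of SPRR3. In these libraries 10 genes of endothelium and fibroblasts summed to 5448 and 5809 TPM, against 26.1 to 871 TPM in the other 23, and 6 adipocyte genes summed to 2814 and 21975 TPM. Adipocyte sums in the other 23 ran from 13.3 to 6992 TPM, the highest in the submandibular library of baboon 5, where EMP1 was at 37.9 TPM. Their part in the EMP1 level was not tested.

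**Figure D4:**
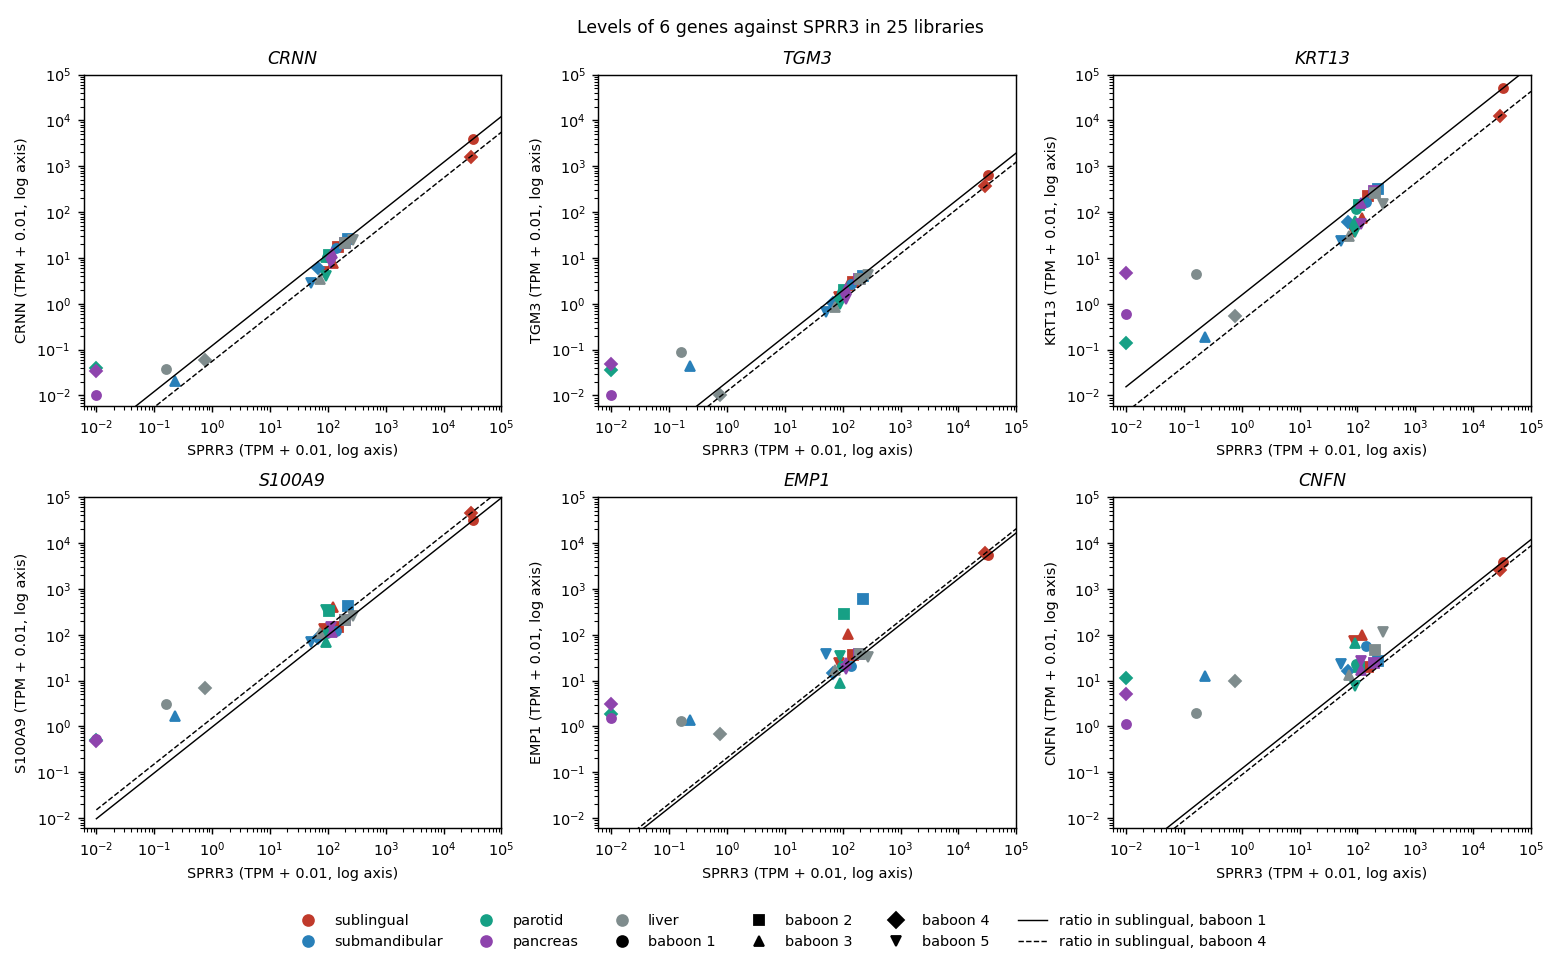
Levels of CRNN, TGM3, KRT13, S100A9, EMP1 and CNFN against SPRR3 (TPM + 0.01, both axes log) in 25 libraries, coloured by tissue with the animal as marker; the solid and dashed lines continue the proportion of sublingual baboon 1 and of sublingual baboon 4. CRNN, TGM3 and KRT13 points with at least 10 TPM of SPRR3 lie mostly near or between the lines, whereas CNFN and EMP1 points lie on or above them in many libraries, EMP1 up to 272% of SPRR3.

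Tests between tissues were made on the 20 libraries without sublingual gland, on which the genes had not been chosen. Genes needed a tissue mean of 1 TPM or more to enter, which left 14367 genes and 8 of the 10. A2ML1 and SCEL stayed below that level. In parotid against pancreas 0 of the 8 were called, with 5.84% of all genes called. In submandibular gland against pancreas 0 of 8 were called against 5.64%, in pancreas against liver 0 of 8 against 21.1%, and in parotid against submandibular gland 0 of 8 against 0.0487%. At an unadjusted p below 0.05 limma gave 0, 1, 0 and 0 of the 8. Of all calls, those in the higher direction made 48.0% in parotid against pancreas (37.3% and 34.7% after TMM and median-of-ratios scaling) and 16.6% in pancreas against liver (39.4% and 41.1%).

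MAL was the gene nearest to a call. It measured 24.1, 91.1, 10.7, 17.1 and 11.2 TPM in submandibular gland and 5.75, 21.2, 9.29, 2.99 and 7.65 TPM in pancreas of baboons 1 to 5, higher in gland in 5 of 5 animals although the ranges overlap. The log2 difference was 1.36 (SE 0.42, limma adjusted p = 0.0640), and 1.58 (adjusted p = 0.0266) without baboon 5, which passes the threshold. In parotid against pancreas MAL differed by 0.71 (SE 0.42, adjusted p = 0.297), higher in 4 of 5 animals.

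The spread between animals was larger than most of the other differences. S100A9 differed by 1.47 (SE 1.27, limma adjusted p = 0.448, higher in 4 of 5 animals) between parotid and pancreas and by 1.34 (SE 1.27, adjusted p = 0.721, 3 of 5) between submandibular gland and pancreas. SPRR3 differed by 1.01 (SE 1.48, adjusted p = 0.659, higher in 1 of 5 animals) and 1.15 (SE 1.48, adjusted p = 0.801, 3 of 5) in the same comparisons, and both values turned negative without baboon 1 (-0.38 and -0.35). Parotid and pancreas of baboon 4 were tied, with SPRR3 listed at 0 in both. EMP1 differed by 1.34 (SE 0.81, adjusted p = 0.499, higher in 4 of 5 animals) between submandibular gland and pancreas, and by 2.53 (adjusted p = 0.0472) without baboon 3. The median difference of the 8 genes was 0.95 in parotid and 1.16 in submandibular gland against pancreas, beside 0.47 and 0.18 over all genes tested.

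Among 70 tested genes of the 7 squamous lists, 8 were called in submandibular gland against pancreas (11.4%, beside 5.64% of all genes) and 6 in parotid against pancreas (8.57%, beside 5.84%). In pancreas against liver 8 were called (11.4%, beside 21.1% of all genes). In parotid against submandibular gland 0 were called, beside 0.0487% of all genes. Higher in submandibular gland than pancreas were CALML3 and CALML5 (calmodulin-like proteins), S100A6, S100A1, KLF4 and PITX1, and lower were SERPINB1 and KRT16. Higher in parotid than pancreas were CALML5, S100A6, S100A1, PAX9 and PITX1, and lower was KRT16. S100A1, listed for its place in the epidermal differentiation complex, was lowest in the 2 sublingual libraries in which the 10 genes were highest, at 103, 1317, 417, 55.2 and 1362 TPM in baboons 1 to 5. By limma, the log2 level of PITX1 rose by 3.36 from pancreas to submandibular gland (SE 0.62, adjusted p = 0.00144, higher in 5 of 5 animals) and by 2.38 in parotid (SE 0.62, adjusted p = 0.0238, 4 of 5). The 2 comparisons share the pancreas libraries.

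The levels of the 10 genes moved together over the libraries. Pearson r of log2(TPM + 1) between pairs of the 10 ran from 0.73 to 0.99 over 25 libraries (median 0.88 of 45 pairs) and from 0.48 to 0.99 over the 20 that are not sublingual (median 0.80). These r values share libraries and animals and describe the table only. Those over 25 libraries were largely set by the choice of the genes, which were taken for their high sublingual levels. The likeness of other genes over 25 libraries has the same limit. Among 11498 other named genes, those most like the mean of the 10 over 25 libraries were ADA (adenosine deaminase, r = 0.986), KRT78 (a keratin, 0.982), RHCG (an ammonium transporter, 0.975), SPRR1B (an envelope protein, 0.973), MUC21 (a membrane mucin, 0.967), SPINK7 (0.966), TMPRSS11B (a membrane serine protease, 0.964) and CRCT1 (0.963). Of these 8, 6 were again among the nearest 8 over the 20 libraries without sublingual gland, where KRT4 (0.975) and KRT13 (0.953) took the other places. The gene nearest to a single member was MALL, a relative of MAL, for MAL (0.953) and EMP1 (0.964), CLDN17 for SCEL (0.991), TMEM40 for TGM3 (0.984), SPRR1B for CRNN (0.990) and SPINK5 for CNFN (0.938).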

How the data were processed

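The authors deposited 1 table of TPM per gene for the 25 libraries, and its name says that the values are kallisto abundances. The submitters' processing notes also name FastQC, MultiQC, cutadapt, HISAT2, SAMtools, featureCounts and DESeq2, with no versions. The genome build and transcript index are not given in the sources used here, so no coordinates are printed. RefSeq gene names of Panubis1.0 matched all 21287 identifiers. Library totals were 999999.5 to 1000000.6 TPM, so each value depends on the highest genes of its library.

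The 10 genes and all marker lists were chosen with earlier results of these data known. Genes named from a list are the 4 with the highest sublingual mean at most. Those named as most alike have the highest Pearson r with the mean of the 10. Other list genes (called ones such as CALML3 and KRT16, and AQP5, SCNN1B, CD14, CSF3R, MMP8, CXCR2, S100A12 and LYZ) were named after their values were seen.

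The package limma 3.58.1 (R 4.3.3) was run on log2(TPM + 1) with a trended prior, lmFit and contrasts.fit, with tissue and animal as terms, after a filter at a mean of 1 TPM in a tissue. Tables and figures were made with Python 3.11.15. The tested comparisons used the 20 libraries without sublingual gland, and the sublingual ones all 25. Samples with the same number come from the same animal, as the labels and the within-subject design say; deviations from tissue means correlated at 0.161 within and -0.0354 between animals. The p-values rest on the spread left after the tissue and animal terms, pooled over the tissues of the fit, with 1 library per tissue and animal. A gene therefore has the same SE in each tested comparison, 1.48 for SPRR3. The SD of its within-animal differences was 5.62 in submandibular gland against pancreas and 0.74 in pancreas against liver. Alternatives were no replicate block, all 25 libraries, TMM and median-of-ratios scaling, no filter or 5 TPM, a pseudocount of 0.1, and leaving out each animal. The recount of highest pairs and the ratios between sublingual baboons 1 and 4 under scaling were chosen after seeing the data. The model was checked on simulated data with normal noise drawn separately for each library and no animal effect. That check does not cover levels shared within an animal.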

Additional observations from a re-analysis of the deposited data

Results flagged for a closer look

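The 10 genes were searched for single libraries that stand apart from the other 4 of their tissue on the log2(TPM + 1) scale, by a gap of more than 0.71 of the range. Of 50 groups of 5 libraries 3 held one, and chance alone gives about 1 in 20.

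SPRR3 in the submandibular library of baboon 3 was at 0.218 TPM, below the other submandibular libraries at 51.1 to 226 TPM. SPRR3 in the parotid library of baboon 4 was listed at 0, below the other parotid libraries at 91.4 to 105 TPM. A2ML1 in the liver library of baboon 2 was at 1.09 TPM, above the other liver libraries at 0 to 0.189 TPM.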

How the results depend on the processing

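Each member's sublingual difference kept its direction in all alternatives run. This is no check of the direction, because the genes were chosen for high sublingual levels. Each run also kept at least 1 of the 2 sublingual libraries that carry these means. Of the 380 alternative values for the 8 genes tested without sublingual gland, 43 changed sign and 2 were called. Member calls in submandibular gland against pancreas went from 0 to a range of 0 to 1 when 1 animal was left out: MAL (1.58) without baboon 5, EMP1 (2.53) without baboon 3. SPRR3 changed sign in parotid against pancreas without baboon 1 (-0.38), in submandibular gland against pancreas without baboon 1 (-0.35) or 4 (-0.093), and in pancreas against liver under TMM (0.13) and median-of-ratios scaling (0.16, from -0.33). Leaving out each animal gave -0.35 to 3.08 for SPRR3 in submandibular gland and -0.38 to 1.49 in parotid against pancreas. EMP1 in pancreas against liver went from 0.21 to -0.054 without baboon 4, and its range was -0.054 to 0.48. The cause of these changes was not tested.

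TMM and median-of-ratios scaling raised the genes called from 839 to 1513 and 1519 in parotid against pancreas and from 810 to 1580 and 1587 in submandibular gland against pancreas, and lowered those in parotid against submandibular gland from 7 to 2 and 2. The last count was 0 with all 25 libraries in the fit and 0 with no filter. In sublingual against the mean of the other glands, 93 became 55 with no replicate block and 55 with no filter. Without the replicate block the other counts of genes called stayed within 1.5 times and 0 of 8 members were called in each comparison.

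Leaving out 1 animal gave 416 to 855 genes in parotid and 458 to 846 in submandibular gland against pancreas, 2007 to 3080 in pancreas against liver (main 3033), 0 to 22 in parotid against submandibular gland, 393 (without baboon 1) to 3011 (without baboon 2) in sublingual against pancreas (main 1419), and 0 to 2523 in sublingual against the other glands. The share of the 10 genes' sum in the sublingual libraries of baboons 1 and 4 was 33.9% and 60.2% under TMM scaling, 33.6% and 60.7% under median-of-ratios scaling, and 63 of 95 list genes had them as the highest pair under either. TPM carries no depth, so the counting limit of levels near 0 is unknown.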
